A study of Caenorhabditis elegans with 6 samples.

Results

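The nuclear-encoded genes of respiratory complex I were followed in whole young adult Caenorhabditis elegans, a nematode, with LARP-1 tagged at its own locus. Genes were taken by name, as those beginning with nuo-, nduf- or the other nd-subunit stems, together with gas-1, lpd-5 and a list of sequence names. This gave 31 of the 16262 genes in the deposited table. RefSeq names 5 further genes for complex I (nduf-11, ndua-7, ndua-12, ndub-6 and ndab-1) that the table lists by sequence name, and these were kept apart. All 31 members had a mean of at least 10 normalized counts and entered the test.

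The LARP-1::APEX2 animals (knock-in allele yq637) gave 3 libraries and the LARP-1::GFP animals (knock-in allele yq636) gave 3 more. LARP-1 belongs to the La-related proteins, which bind RNA. APEX2, an enzyme engineered from a plant peroxidase, biotinylates molecules near it, which GFP cannot do. Worms of both genotypes were grown at 20 °C, held for 2 h at 25 °C with 3.3 mM biotin-aniline and given 100 mM H2O2 for 2 min. The untreated state and worms with untagged LARP-1 were therefore not analysed here. Each tag is represented by 1 allele. Titles speak of immunoprecipitation, whereas the protocols in the labels describe total RNA and no pull-down, so recovery near the tagged protein and RNA level in the strain cannot be told apart. In RNA from whole worms, fewer cells of a type and less RNA per cell cannot be told apart either.

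Complex I oxidises NADH in the mitochondrial matrix, passes the electrons along a chain of iron-sulphur clusters to ubiquinone, and pumps protons across the inner membrane. It is built from an NADH-oxidising module (N), a ubiquinone-reducing module (Q) and a membrane module (P). The proton-pumping core of the membrane module is encoded by the mitochondrial genome, and the other subunits are nuclear. In worms, loss of gas-1 function makes animals hypersensitive to volatile anaesthetics, and a mutation in nuo-6 lengthens life. Module and subunit names below follow the human orthologue of each gene.

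The libraries held 3824041 to 6414569 reads on listed genes, and the least covered member had 95 reads in a library. Principal component 1 of the tested genes (50.9% of the variance) separated the genotypes, and along the next, with 19.5%, APEX2 replicate 1 stood apart at -28.3 while APEX2 replicates 2 and 3 lay at 18.4 and 17.2. The tagged gene larp-1 averaged 2861 ± 147 normalized counts with APEX2 and 2588 ± 26.8 with GFP (SD, n = 3), and its log2 difference of 0.14 ± 0.09 did not pass (limma, adjusted p = 0.30). Markers of muscle, intestine, germline, oocyte, neuron and hypodermis were all read in these whole animals, and of the 4 sperm markers spe-9 and spe-11 were at 0 in at least 1 library. Of 4 oocyte markers 3 rose and 1 fell, with a summed level of 10551 to 11486 normalized counts with APEX2 and 8901 to 9042 with GFP. Of 4 intestinal markers 1 rose and 3 did not pass, and their sum was 4153 to 5950 with APEX2 and 2711 to 3401 with GFP. Most of that sum is act-5, which rose (3917 ± 704 with APEX2 and 1984 ± 324 with GFP, SD, n = 3). The 3 that did not pass went both ways, with ifb-2 at 0.13, ges-1 at -0.51 and elt-2 at -0.41. Of these, ges-1 and elt-2 were low, with GFP means of 41.8 and 22.2 normalized counts. Muscle and germline markers, 3 each, held 1 that rose and 1 that fell. The germline sum was 1720 to 1953 with APEX2 and 2014 to 2146 with GFP. In it pgl-1 had a difference of -1.02 (limma, adjusted p = 0.0001) and glh-1 of 0.44. The tested markers of sperm, neuron and hypodermis did not pass. The neuron sum, most of it snb-1, was 1476 to 1495 with APEX2 and 1314 to 1371 with GFP. Summed ranges of muscle, sperm and hypodermis markers overlapped. The part of these shifts in the results on complex I was not tested.

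Complex I genes moved in both directions, and most did not pass. Of the 31 genes, 5 rose with APEX2 (gas-1, C18E9.4, F42G8.10, C16A3.5 and nuo-5), 3 fell (nuo-3, nduf-5 and Y69A2AR.3) and 23 did not pass. The test was limma on log2(normalized count + 1), with Benjamini-Hochberg adjustment over all 10534 tested genes and a threshold of 0.05. Among all tested genes 21.7% were called, 11.6% higher and 10.1% lower, so the shares of the members, 16.1% higher and 9.68% lower, lay near that background. Differences ran from -0.62 to 0.58 on the log2 scale, 15 positive and 16 negative, with a median of -0.03 against 0.02 over all tested genes. The median size of a difference was 0.18 for the members and 0.28 for all tested genes. These sizes were not matched for level, as each member averaged at least 158 normalized counts and the tested genes at least 10.

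Summed over the 31 genes, the level was 28467, 25981 and 24809 normalized counts in APEX2 replicates 1 to 3, and 23031, 25379 and 25920 in GFP replicates 1 to 3. The ranges overlapped, with APEX2 replicate 1 highest and GFP replicate 1 lowest. Their share of all recovered reads was 0.575% ± 0.0177 in LARP-1::APEX2 and 0.561% ± 0.0314 in LARP-1::GFP libraries (SD, n = 3). Groups did not overlap for 15 members, 9 higher and 6 lower with APEX2, which is 48.4% against 37.4% of all tested genes (19.9% higher and 17.5% lower).

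**Figure D1:**
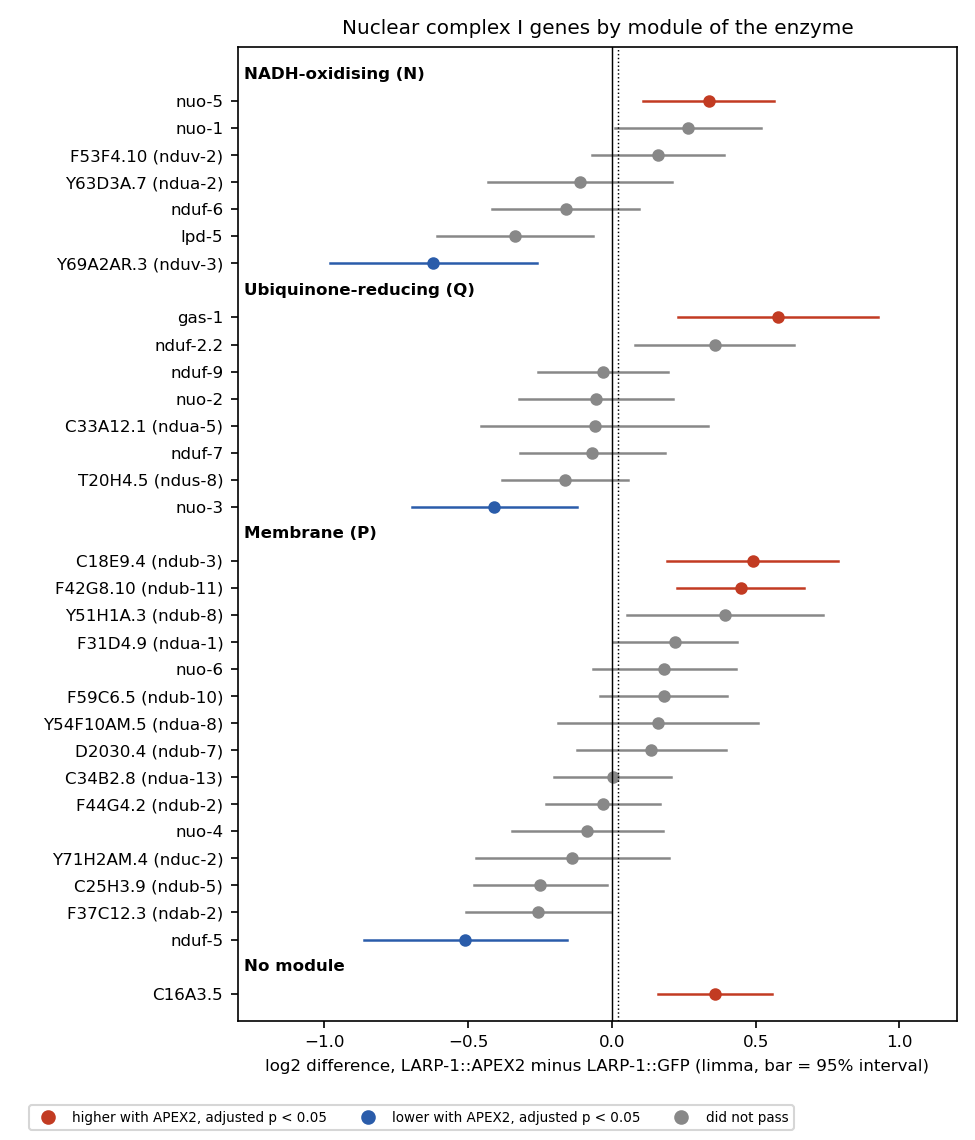
Log2 difference (LARP-1::APEX2 minus LARP-1::GFP) of the 31 nuclear complex I genes on the horizontal axis, with the 95% interval from limma. Genes are ordered within the N, Q and P modules, and C16A3.5, placed in no module, is drawn last. Red genes were called higher, blue genes lower and grey genes did not pass, and the dotted line marks the median of all tested genes, 0.02. Each of the N, Q and P modules holds genes on both sides of 0.

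In the N module, which takes electrons from NADH, 1 of 7 genes rose and 1 fell, around a median of -0.11. The gene that rose was nuo-5 (WBGene00021562, chromosome V, 2698972 to 2706984, plus strand, WBcel235), which encodes the large iron-sulphur subunit NDUFS1. It had 2136, 2003 and 1715 normalized counts with APEX2 and 1530, 1638 and 1456 with GFP. All 3 APEX2 libraries lay above the GFP libraries. The log2 difference was 0.34 ± 0.11 (SE; limma, adjusted p = 0.035). This call ended without any 1 GFP library or without APEX2 replicate 1 or 2 (differences of 0.27 to 0.38, highest adjusted p = 0.16, limma). It also ended under quantile normalization (0.16, limma adjusted p = 0.26), with libraries scaled to the same total (0.28, 0.0505) and after correction for exonic length (0.28, 0.080). A 19-nucleotide exon overlap joins nuo-5 to C24B9.3 on the opposite strand, which rose by 0.43 (limma, adjusted p = 0.0074).

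The flavin-bearing, NADH-binding subunit NDUFV1 is encoded by nuo-1 (WBGene00003831, chromosome II, 11097837 to 11100146, plus strand). Its counts were 1129, 888 and 858 with APEX2 against 728, 839 and 812 with GFP, without overlap, but the difference of 0.26 had a 95% interval of 0.01 to 0.52 and did not pass (limma, adjusted p = 0.13). Without APEX2 replicate 1 it was 0.14. F53F4.10, named nduv-2 by RefSeq and orthologous to the iron-sulphur subunit NDUFV2 (WBGene00009992, chromosome V, 13624625 to 13625567, minus strand), had 1032, 970 and 1001 normalized counts with APEX2 and 779, 948 and 970 with GFP. APEX2 replicate 2 and GFP replicate 3 were level, and the difference was 0.16 (interval -0.07 to 0.39).

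The accessory subunit gene Y69A2AR.3, nduv-3 in RefSeq (WBGene00022075, chromosome IV, 2641310 to 2642113, plus strand), had the lowest difference of the 31. Its normalized counts were 423, 239 and 274 with APEX2 and 462, 482 and 453 with GFP. All 3 APEX2 libraries were below all GFP libraries, and APEX2 replicate 1 lay much nearer to GFP than the other two. The log2 difference was -0.62 ± 0.17 (limma, adjusted p = 0.017), and -0.86 without APEX2 replicate 1. The call ended without any 1 GFP library (differences of -0.64 to -0.60, highest adjusted p = 0.071, limma) and without APEX2 replicate 2 (-0.45, limma adjusted p = 0.088). Corrected for exonic length, the difference was -0.31 and did not pass (limma, adjusted p = 0.22). Of the other accessory genes of the N module, lpd-5 (NDUFS4) had a difference of -0.34 with groups that did not overlap (limma, adjusted p = 0.072). It was -0.22 without APEX2 replicate 1, and passed without APEX2 replicate 2 (-0.43, limma adjusted p = 0.046). The differences of nduf-6 and Y63D3A.7 (ndua-2) were -0.16 and -0.11.

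In the Q module, which hands electrons to ubiquinone, 1 of 8 genes rose and 1 fell, with a median of -0.06. The gene that rose was gas-1 (WBGene00001520, chromosome X, 15586786 to 15590397, minus strand). Its normalized counts were 633, 609 and 393 with APEX2 and 311, 381 and 383 with GFP. APEX2 replicates 1 and 2 lay far above GFP, while APEX2 replicate 3 lay just above the highest GFP library. The log2 difference of 0.58 ± 0.16 was the highest of the 31 (limma, adjusted p = 0.021). Without APEX2 replicate 3 it was 0.80, and the call ended without APEX2 replicate 2, GFP replicate 1 or GFP replicate 3 (0.48, 0.48 and 0.63, limma adjusted p = 0.099, 0.103 and 0.058).

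nduf-2.2 (WBGene00006463, chromosome III, 6465222 to 6467206, plus strand), a paralog of gas-1, had 328, 435 and 397 normalized counts with APEX2 and 292, 323 and 286 with GFP, again without overlap, but its difference of 0.36 ± 0.13 did not pass (limma, adjusted p = 0.062). Without APEX2 replicate 1, its lowest APEX2 library, it was called at 0.47. Reads common to the paralogs may have been split between them, so both values are uncertain. Summed, the pair had 960, 1044 and 790 normalized counts with APEX2 and 603, 703 and 668 with GFP, without overlap.

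The other nuclear core subunits described here for this module did not pass. nuo-2 (NDUFS3; WBGene00020417, chromosome I, 6530131 to 6531963, minus strand) had 1341, 968 and 972 normalized counts with APEX2 and 1057, 1131 and 1183 with GFP. Only APEX2 replicate 1 was above GFP, and the difference was -0.06 (interval -0.32 to 0.21). nduf-7 (NDUFS7, which carries the last iron-sulphur cluster before ubiquinone; WBGene00012376, chromosome I, 9108173 to 9110918, minus strand) had 904, 967 and 798 with APEX2 and 812, 929 and 1066 with GFP, a difference of -0.07 (interval -0.32 to 0.18). T20H4.5, ndus-8 in RefSeq, encodes another iron-sulphur subunit (NDUFS8; WBGene00020636, chromosome III, 7232926 to 7234202, minus strand). It had 885, 858 and 867 with APEX2, each below the GFP values of 941, 904 and 1085, and a difference of -0.16 (interval -0.38 to 0.06).

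The accessory gene nuo-3 (NDUFA6; WBGene00013308, chromosome IV, 14796419 to 14797544, minus strand) fell. Its counts were 1124, 765 and 933 with APEX2 and 1083, 1279 and 1356 with GFP, so APEX2 replicate 1 overlapped the GFP range. The log2 difference was -0.41 ± 0.13 (limma, adjusted p = 0.042). The call ended without APEX2 replicate 2 or 3 or GFP replicate 2 or 3 (-0.27, -0.41, -0.38 and -0.34, highest adjusted p = 0.21, limma). Of its 1078 exonic nucleotides, 783 are shared with another gene on the same strand (WBGene00303007), so the reads of these genes cannot be told apart there. That gene had a difference of -0.27 (limma, adjusted p = 0.064). The remaining Q genes, nduf-9 (NDUFA9) and C33A12.1 (ndua-5), had differences of -0.03 and -0.06.

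In the P module, whose nuclear subunits surround the proton-pumping core, 2 of 15 genes rose and 1 fell, with a median of 0.14. F42G8.10, ndub-11 in RefSeq (WBGene00018361, chromosome IV, 8128940 to 8130231, minus strand), had 813, 908 and 937 normalized counts with APEX2 and 681, 613 and 652 with GFP. The lowest APEX2 library was well above the highest GFP library. Its difference of 0.45 ± 0.10 had the lowest adjusted p of the 31 (limma, 0.0069), and it was the 1 member called under each of the 17 alternatives. C18E9.4, ndub-3 in RefSeq (WBGene00007684, chromosome II, 8964242 to 8964890, minus strand), had 1217, 927 and 777 with APEX2 and 653, 735 and 659 with GFP, highest in APEX2 replicate 1. The log2 difference was 0.49 ± 0.14 (limma, adjusted p = 0.022), and 0.32 without APEX2 replicate 1. The call ended without APEX2 replicate 2, GFP replicate 1 or GFP replicate 3 (0.51, 0.46 and 0.47, limma adjusted p = 0.055, 0.084 and 0.098).

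The gene that fell in the P module, nduf-5 (NDUFS5; WBGene00021839, chromosome I, 3001406 to 3002847, minus strand), had 156, 222 and 259 normalized counts with APEX2 and 285, 298 and 306 with GFP. All 3 APEX2 libraries were below GFP, APEX2 replicate 1 the lowest. The difference was -0.51 ± 0.17 (limma, adjusted p = 0.040). It was -0.30 without APEX2 replicate 1 (limma, adjusted p = 0.086) and -0.56 without APEX2 replicate 2 (0.067), and the call also ended without any 1 GFP library (-0.54 to -0.49, highest adjusted p = 0.15, limma). Corrected for exonic length it was -0.28 (limma, adjusted p = 0.26).

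The other 12 genes of the P module did not pass, with differences from -0.26 for F37C12.3 (ndab-2, an acyl carrier protein) to 0.39 for Y51H1A.3 (ndub-8). Y51H1A.3 was high in APEX2 replicate 1 (2247 normalized counts) and at 1545 and 1344 in APEX2 replicates 2 and 3, against 1100, 1457 and 1286 with GFP. Its difference was 0.18 without APEX2 replicate 1, and without APEX2 replicate 3 it passed at 0.55 (limma, adjusted p = 0.016). That of F37C12.3 was -0.15 without APEX2 replicate 1. Differences were positive for F31D4.9 (ndua-1, 0.22), nuo-6 (NDUFB4, 0.18), F59C6.5 (ndub-10, 0.18), Y54F10AM.5 (ndua-8, 0.16) and D2030.4 (ndub-7, 0.14). C34B2.8 (ndua-13), F44G4.2 (ndub-2) and nuo-4 (NDUFA10) lay at 0.00, -0.03 and -0.08, and Y71H2AM.4 (nduc-2) and C25H3.9 (ndub-5) at -0.14 and -0.25.

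C16A3.5 (WBGene00015810, chromosome III, 6380772 to 6381517, plus strand), for which the annotation gives no further name, rose. The lists used here placed C16A3.5 in no module, so the module counts above leave it out. It had 1908, 1969 and 1955 normalized counts with APEX2 and 1579, 1436 and 1536 with GFP, the tightest APEX2 group of the called genes. The difference was 0.36 ± 0.09 (limma, adjusted p = 0.014). The call ended under quantile normalization (0.19, limma adjusted p = 0.21) and without APEX2 replicate 2, GFP replicate 2 or GFP replicate 3 (0.35, 0.32 and 0.37, limma adjusted p = 0.053, 0.075 and 0.057).

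**Figure D2:**
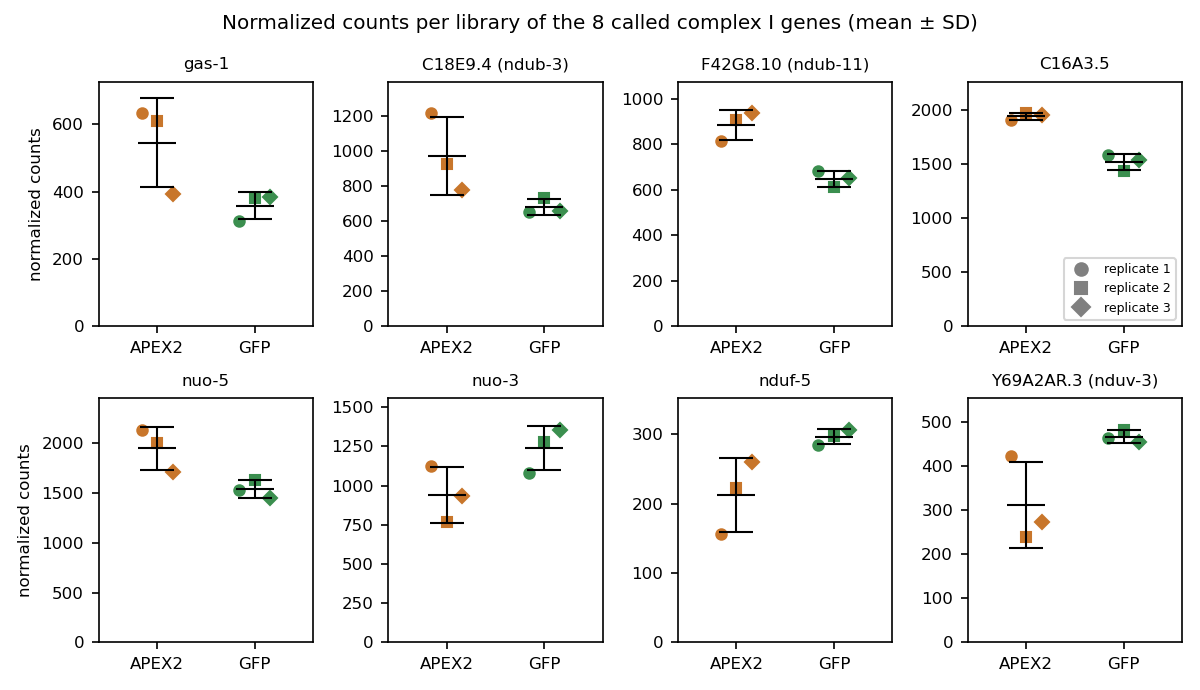
Normalized counts (vertical axes, from 0) of the 8 called genes in each library, LARP-1::APEX2 left and LARP-1::GFP right, with the mean and SD of 3 libraries and a marker shape for each replicate. The groups are apart in all but nuo-3, where APEX2 replicate 1 (1124) lies above GFP replicate 1 (1083), and the APEX2 libraries are more spread (higher SD) than the GFP libraries in all but C16A3.5.

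The members did not share 1 order of the APEX2 libraries. Measured against the GFP mean, APEX2 replicate 1 was highest for C18E9.4 (0.84, against 0.44 and 0.19 in replicates 2 and 3) and lowest for nduf-5 (-0.92, against -0.41 and -0.19). For Y69A2AR.3 it was the nearest to GFP (-0.14, against -0.96 and -0.76). Over the 31 members the median deviation was 0.13, 0.03 and -0.02 in APEX2 replicates 1 to 3, and -0.08, 0.05 and 0.07 in GFP replicates 1 to 3.

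Levels per exon length differed widely among subunits of the same enzyme. Over all 6 libraries the members ran from 230 normalized counts per kilobase of exon for nduf-2.2 to 2725 for C16A3.5, with a median of 986. For gas-1 the level was 323 ± 78.3 with APEX2 and 212 ± 24.1 with GFP, and for nduf-2.2 259 ± 36.5 with APEX2 and 201 ± 13.3 with GFP (SD, n = 3), so the paralogs overlapped within each genotype. C33A12.1 lay between them with APEX2, at 272 ± 72.7 per kilobase, and above both with GFP, at 276 ± 16.3 (SD, n = 3). At the other end, C16A3.5 had 3061 ± 50.5 per kilobase with APEX2 and 2389 ± 115 with GFP. Single exonic lengths are those of the annotation and ignore which isoform was made.

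**Figure D3:**
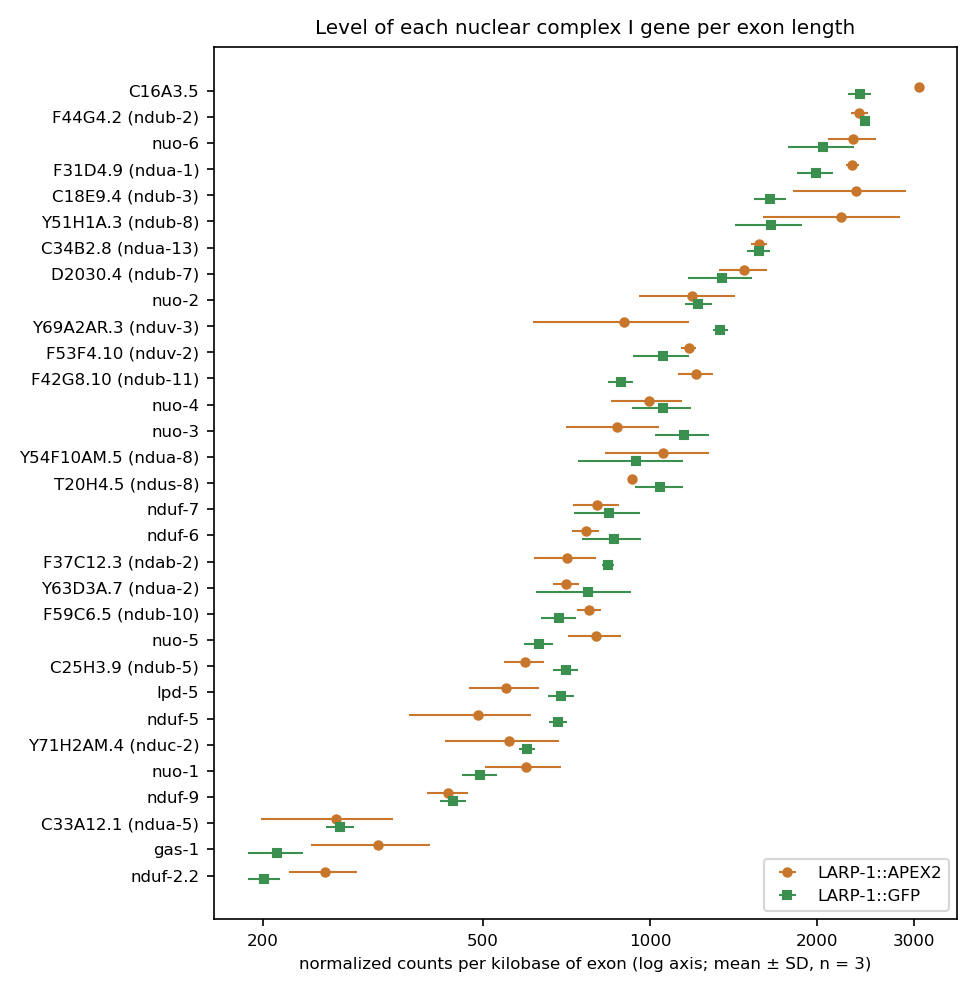
Normalized counts per kilobase of exon (logarithmic horizontal axis, mean and SD of 3 libraries) of each member, LARP-1::APEX2 in orange and LARP-1::GFP in green, ordered by the mean of all 6 libraries. The range is from 230 for nduf-2.2 to 2725 for C16A3.5, and the shift between genotypes is small beside that between genes.

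Most complex I genes are short, with 345 to 2444 exonic nucleotides and a median of 732, against 1417 over all tested genes. Short genes tended to be lower with APEX2 in the whole table. Among all tested genes under 600 nucleotides, 6.17% rose and 24.7% fell, with a median difference of -0.25. The 10 members of that length had a median of -0.12, with 1 higher (C18E9.4) and 2 lower (nduf-5 and Y69A2AR.3). From 600 to under 1000 nucleotides, 13 members had a median of 0.16, against -0.02 over all genes of that length. Of these members 2 were higher and the rest did not pass, while 9.82% of all genes in that range rose and 10.3% fell. At 1000 nucleotides or more, 8 members had a median of 0.12, against 0.06 over all genes of that length. Of these members 2 were higher and 1 lower, while 12.9% of all genes in that range rose and 7.72% fell. Members and all genes of a range were not matched for level, nor for length within the range. Across the 31 members, which share the 6 libraries, the rank correlation of difference and exonic length was 0.27. After each library was corrected for its trend on exonic length, 5 members were higher and 1 lower, around a median of 0.08. That set added F31D4.9 as higher (0.53, limma adjusted p = 0.0021) and no longer held nuo-5 (0.28), nduf-5 or Y69A2AR.3.

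**Figure D4:**
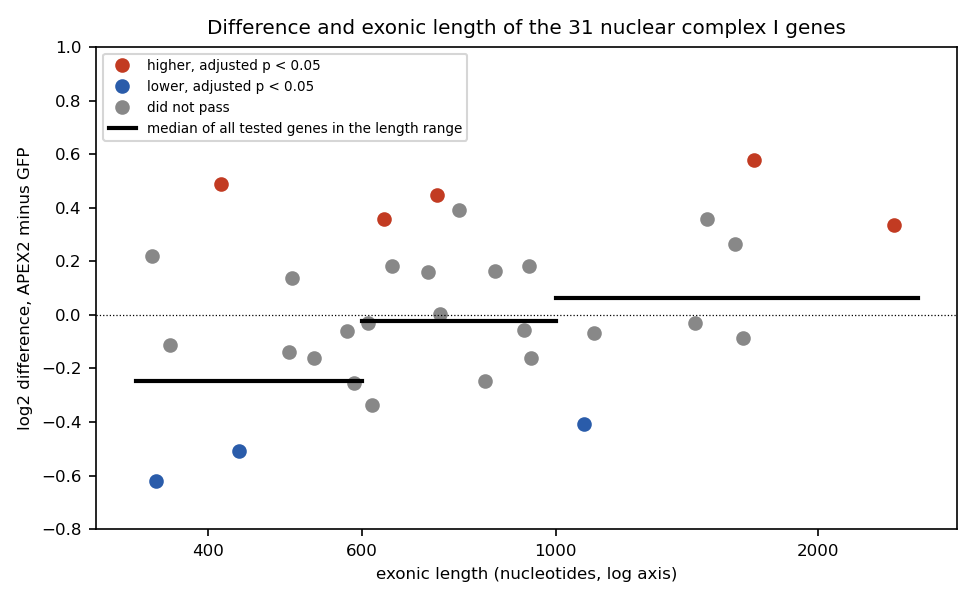
Log2 difference (LARP-1::APEX2 minus LARP-1::GFP) of the 31 members against exonic length on a logarithmic axis, coloured by call. Black bars give the median of all tested genes under 600 nucleotides (-0.25), from 600 to under 1000 (-0.02) and at 1000 or more (0.06). The members have higher medians in each range, -0.12, 0.16 and 0.12, but were not matched to those genes for level.

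Beside the nuclear members, the 7 complex I subunits of the mitochondrial genome had a median difference of -0.73. Of these, 5 (71.4%) were lower and 2 (ND2 and ND3) did not pass. The summed level of the 7 was 5698 to 7799 normalized counts with APEX2 and 10051 to 12340 with GFP. A list of 24 genes held cytochrome c and nuclear subunits of complexes II to IV. Of these, 9 (37.5%) rose and 15 did not pass, and the median was 0.14. Of 14 ATP synthase genes, 5 (35.7%) rose and 9 did not pass, with a median of 0.22. Among all tested genes 11.6% were called higher and 10.1% lower. The difference between these lists and nuclear complex I was not tested.

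**Figure D5:**
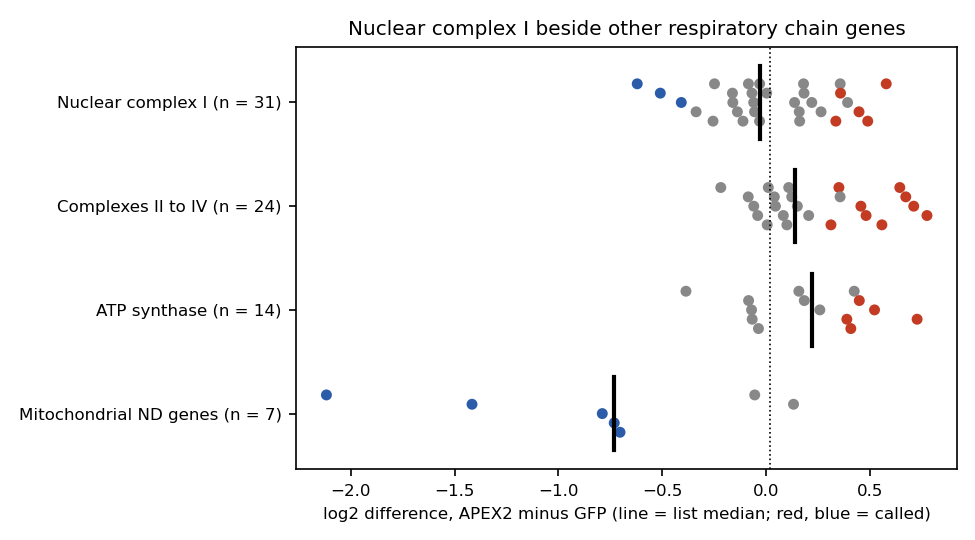
Log2 difference (LARP-1::APEX2 minus LARP-1::GFP) of every gene of nuclear complex I, complexes II to IV, ATP synthase and the mitochondrial ND genes, with the list median as a black line and called genes in red (higher) or blue (lower). Nuclear complex I is centred at -0.03, complexes II to IV at 0.14, ATP synthase at 0.22 and the ND genes at -0.73.

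Few genes that serve complex I without being part of it were called. In each list, of 4 to 8 tested genes, at most 1 gene was called in a direction. Over all tested genes the called shares were 11.6% higher and 10.1% lower. Of 5 assembly factors, which help to put the enzyme together, B0334.5 (nuaf-6 in RefSeq) rose to 596 ± 22.01 normalized counts with APEX2, against 456 ± 32.8 with GFP (SD, n = 3), which differ by 0.39 ± 0.11 on the log2 scale (SE; limma, adjusted p = 0.018). K09E4.3 (nuaf-5) fell to 48.0 ± 14.2 with APEX2, against 85.5 ± 13.7 with GFP (SD, n = 3), which differ by -0.85 ± 0.24 on the log2 scale (SE; limma, adjusted p = 0.021). The calls of both genes ended without GFP replicate 3 (0.37 and -0.77), that of B0334.5 also without GFP replicate 1 (0.35) and that of K09E4.3 without GFP replicate 2 (-0.79). Differences of nuaf-1 (-0.06) and ZK1128.1 (nuaf-7, -0.64) did not pass. With a mean under 10, nuaf-3 was not tested. It had 2.42 ± 2.07 normalized counts with APEX2 and 13.9 ± 3.41 with GFP (SD, n = 3), without overlap.

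Of 8 genes for the synthesis of ubiquinone, which accepts the electrons of complex I, coq-1 rose, with 168 ± 16.7 normalized counts with APEX2 and 102 ± 9.80 with GFP (SD, n = 3), which differ by 0.70 ± 0.16 on the log2 scale (SE; limma, adjusted p = 0.0056). The other 7, clk-1 among them (0.35), did not pass. Of 6 genes of iron-sulphur cluster supply, the transporter gene abtm-1 fell to 240 ± 17.2 with APEX2, against 421 ± 53.9 with GFP (SD, n = 3). These differ by -0.80 ± 0.13 on the log2 scale (SE, limma, adjusted p = 0.00067), and 5 did not pass. Differences of the 6 were negative for 5 and positive for 1, with a median of -0.25. Their summed level, most of it hsp-6, was 4156 to 4658 with APEX2 and 5230 to 5449 with GFP. Among the 5 complex I genes that RefSeq names and the naming rule leaves out, F45H10.3 (ndua-7) rose by 0.34 ± 0.10 (limma, adjusted p = 0.030), a call that ended without any 1 GFP library or APEX2 replicate 2 (0.32 to 0.38, highest adjusted p = 0.11, limma), under quantile normalization (0.24) and with libraries scaled to the same total (0.29). The other 4 had differences of -0.13 to 0.13.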

How the data were processed

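RNA from whole worms was sequenced after ribosomal RNA depletion, per the labels' protocols. Build ce11 and the tools DESeq2, featureCounts, STAR, Bowtie and Trim Galore appear in the submitters' processing notes; their versions and settings, and whether strand was used, were not given in the sources. The authors deposited normalized counts, a signal per gene and library that is a read count divided by 1 size factor per library. Divided by its library's smallest nonzero value, each value came out whole within 0.001 of a read (100% in each library), so reads were recovered by that division.

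Genes with a mean of at least 10 were compared as log2(value + 1) with limma 3.58.1 in R 4.3.3 (trended, robust prior, two-sided). A log2 difference on this scale understates the change of low genes. Run on the recovered reads, edgeR 4.0.16 called 1121 genes higher and 1095 lower and DESeq2 1.42.0 called 1034 and 958, against 1219 and 1069 with limma; the tests were tried on simulated data first. Nothing in the labels says that replicates came from separate cultures; p-values then reflect only how these samples varied, which may be technical. No 2 replicates agreed within sampling noise (chi-square divided by its degrees of freedom, 2.82 to 12.2).

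Gene IDs, coordinates and exonic lengths came from the Ensembl annotation of WBcel235, the assembly of ce11; 15705 genes matched by symbol and 473 by sequence name through RefSeq. Members and lists were chosen with earlier results of these data known. Every member was to be reported, with each library's value for larp-1, for called members and for 8 catalytic core genes. No sequence was printed.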

Additional observations from a re-analysis of the deposited data

How the results depend on the processing

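The same 8 members were called with pseudocounts of 0.5 or 5, without a filter, with a mean of at least 50, with TMM scaling, with edgeR and with DESeq2. Quantile normalization gave 3 higher and 5 lower with a median of -0.11, and correction for length gave 5 higher and 1 lower with a median of 0.0766; the cause was not tested. Under quantile normalization lpd-5 and C25H3.9 passed as lower (-0.39 and -0.32), and nuo-5 and C16A3.5 did not pass. Leaving out 1 library gave 1 to 6 members higher and 0 to 2 lower, and 612 to 1308 genes higher and 550 to 1192 lower in the whole table. Fewer samples enter those fits. Directions that turned belonged to genes that had not passed. C34B2.8 had -0.0147 with DESeq2, -0.0173 with TMM, -0.0175 with edgeR, -0.11 under quantile normalization and -0.0533 with libraries scaled to the same total. With correction for length, C33A12.1 had 0.0678, F44G4.2 0.0766, Y56A3A.19 0.0565, Y63D3A.7 0.19, Y71H2AM.4 0.0431 and Y94H6A.8 0.0877. With 1 library left out, the ranges that crossed 0 were -0.24 to 0.16 for C33A12.1, -0.0306 to 0.0396 for C34B2.8, -0.0195 to 0.30 for Y54F10AM.5, -0.29 to 0.0579 for Y71H2AM.4, -0.21 to 0.0317 for Y94H6A.8, -0.17 to 0.0305 for nduf-7, -0.0937 to 0.0253 for nduf-9, -0.21 to 0.0241 for nuo-2 and -0.19 to 0.0194 for nuo-4. Same-numbered libraries did not deviate together (correlations of -0.16, -0.08 and 0.02), and no APEX2 library correlated best with its own number, so the numbers are not taken as pairs. With the replicate block 4 members were higher and 2 lower (984 and 883 of all genes), and the calls of nuo-3, nuo-5 and F45H10.3 ended (adjusted p = 0.061, 0.058 and 0.068, limma).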
